A study of Mus musculus with 10 samples.

Results

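The integrin chains of mouse lung mast cells were described from 10 gene symbols out of 22815 symbols in the deposited count table. They were chosen by name with earlier results of these data known. Counts of chains set beside the share of all genes are therefore a description and no test of integrins as a family. The α chains were Itgae, Itga4, Itga9, Itga2, Itga2b and Itgav, and the β chains Itgb7, Itgb1, Itgb2 and Itgb3. All 10 passed the filter on low counts that left 10533 genes to be tested. Mast cells were isolated by cell sorting out of lower airway tissue of C57BL/6 mice, wild type and aged 5 to 7 weeks, and their poly(A)+ mRNA was sequenced in bulk with the SmartSeq2 method. Mice received 20 µL intranasally 2 times a week for 3 weeks, either with 3 µg of house dust mite extract (HDM), an allergen preparation that elicits airway inflammation, or as saline alone. The 10 libraries fall into 4 groups: B7hi cells after HDM (n = 3), B7hi cells after saline (n = 2), B7low cells after HDM (n = 3) and B7low cells after saline (n = 2). In the published use of the names, B7 is integrin β7, B7hi cells are the inducible and B7low cells the constitutive mast cells. The sort was therefore on β7 protein, and the Itgb7 transcript is tied to the gate.

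An integrin is a surface receptor made of an α and a β chain, and the pairing sets what the cell can adhere to. With β7, the α4 chain binds the mucosal addressin MAdCAM-1 and VCAM-1, and the αE chain binds E-cadherin on epithelium. With β1, α4 also binds VCAM-1, α9 binds tenascin-C and VCAM-1, and α2 binds collagen. In mice, α4 and β7 take mast cell progenitors out of the blood into lung and gut, and αIIbβ3, best known as the fibrinogen receptor of platelets, is also found on mast cells.

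Total counts ran from 525983 in B7hi HDM 2 to 1725818 in B7hi saline 2, so that a count of 0 allows a level of up to 5.87 to 1.57 CPM (counts scaled to a common library size), the value of 3 counts in a library. The 8 mast cell markers all had counts in every library, with a summed level of 11777 to 22728 CPM in B7hi and 25851 to 45831 CPM in B7low. B7hi HDM 2 and B7low saline 2 stood apart with 12133 and 6956 CPM of Kcnq1ot1, a nuclear noncoding RNA, against 806 to 2794 CPM in the other 8 libraries, and had the lowest totals. For the chains that passed a test between the populations, fits without both are given as well. Levels, shares, pairs and ratios are given with all 10 libraries. Whether each replicate is a different animal or pool is not in the labels, so a p-value measures only the spread among the libraries, part of which may be technical.

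The promoters of 3 chains are shown here: Itga4, which was higher in B7hi cells, Itgb7, the chain of the sort, and Itgb1, which was lower in B7hi cells. Each runs 300 bases, from 250 before to 50 after the RefSeq start on GRCm38.p6, 5′ to 3′ on the gene's strand, at chr2:79255176-79255475 (plus), chr15:102231886-102232185 (minus) and chr8:128685404-128685703 (plus).
Itga4: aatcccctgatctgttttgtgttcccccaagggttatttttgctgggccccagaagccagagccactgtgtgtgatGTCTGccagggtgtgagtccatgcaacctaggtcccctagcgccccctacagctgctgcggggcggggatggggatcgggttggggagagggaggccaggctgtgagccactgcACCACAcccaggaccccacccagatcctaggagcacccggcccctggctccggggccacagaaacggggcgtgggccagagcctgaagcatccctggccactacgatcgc
Itgb7: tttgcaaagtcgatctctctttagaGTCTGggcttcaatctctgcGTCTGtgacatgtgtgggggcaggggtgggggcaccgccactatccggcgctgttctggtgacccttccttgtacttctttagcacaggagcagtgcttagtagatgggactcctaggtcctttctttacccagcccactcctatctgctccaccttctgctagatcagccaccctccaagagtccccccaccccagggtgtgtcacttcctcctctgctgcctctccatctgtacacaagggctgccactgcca
Itgb1: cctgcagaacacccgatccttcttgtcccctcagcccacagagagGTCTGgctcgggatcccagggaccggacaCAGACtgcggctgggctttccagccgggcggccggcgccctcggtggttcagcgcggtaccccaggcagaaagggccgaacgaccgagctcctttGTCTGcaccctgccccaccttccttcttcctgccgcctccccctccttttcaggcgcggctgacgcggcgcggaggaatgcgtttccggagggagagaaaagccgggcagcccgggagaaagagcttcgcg
Capitals mark matches, on either strand, to the RUNX core TGTGGT and to GTCTG, a SMAD-binding element. The Itga4 window held 1 RUNX match and 1 GTCTG match, the Itgb7 window 2 GTCTG matches and the Itgb1 window 3. RUNX letters occurred in 16.76% and GTCTG letters in 49.59% of the 32851 RefSeq promoter windows of the same length. None of these 3 windows held the GATA motif GATAA (25.41% of all windows) or the E-box CACGTG (7.15%). A match is a description of the letters and no evidence of binding. RefSeq promoters were found for 7 of the 10 chains, not for Itgae, Itgb3 and Itgb2. The Itga9 window, from chr9:118711442, lies inside the annotated gene, which starts at 118606690, and is not shown.

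B7hi and B7low cells differed in 3 of the 6 α chains and 1 of the 4 β chains with HDM, and in 2 α chains with saline. Itga4 was 7.93-fold higher in B7hi with saline and 4.20-fold higher with HDM, and Itgae was 39.4-fold higher with HDM. Itga9 was 9.58-fold lower in B7hi with saline and 8.59-fold lower with HDM, and Itgb1, the partner chain of α9, was 2.53-fold lower with HDM. Itgb7 itself passed the test in no comparison. In edgeR's quasi-likelihood test with Benjamini-Hochberg adjustment over all tested genes and a threshold of 0.05, 2 of the 10 chains passed with saline (1 higher and 1 lower), where 6.54% of all tested genes passed (2.91% higher and 3.64% lower). With HDM 4 of the 10 passed (2 higher and 2 lower), against 2.84% of all genes (0.693% higher and 2.15% lower). Over both challenges together the same 4 passed, against 11.9% of all genes (5.80% higher and 6.08% lower). The median log2 fold change of the 10 chains was 0.19 with saline and −0.18 with HDM, against 0.03 for all genes in each.

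**Figure D1:**
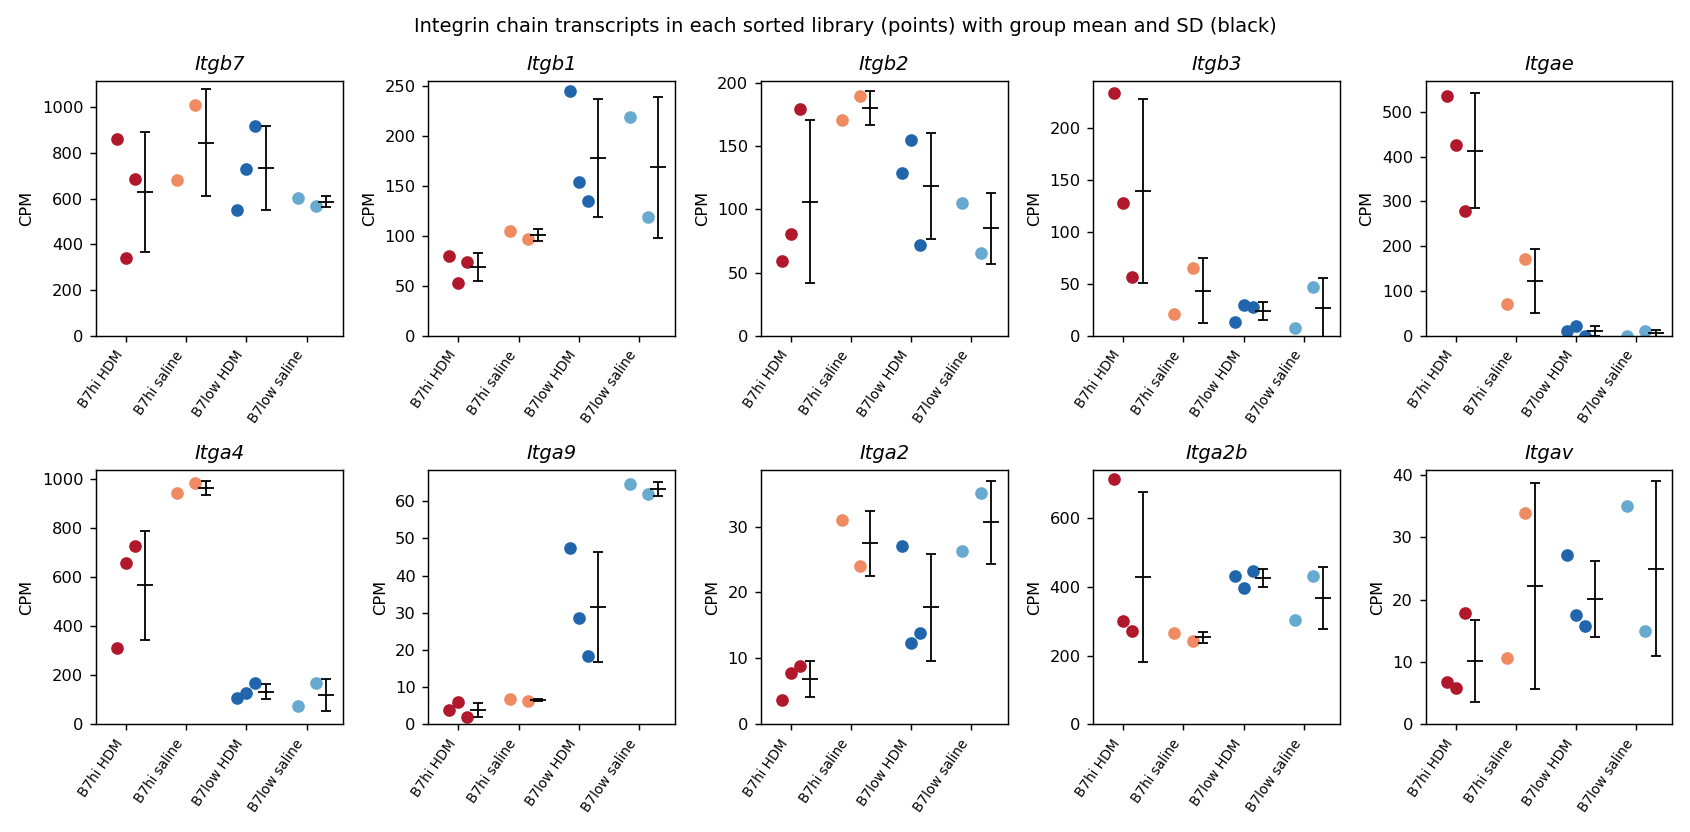
CPM (vertical axes, each from 0) of the 10 integrin chains in the B7hi HDM, B7hi saline, B7low HDM and B7low saline libraries. Points are libraries, and black lines show the mean and SD of each group, cut at 0. Itgae and Itga4 are higher in each B7hi library than in any B7low library, Itgb1 and Itga9 lower, and the Itgb7 points overlap.

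The β7 chain Itgb7 (chromosome 15, 102215995 to 102231944, GRCm38) was at 861, 341 and 688 CPM in B7hi HDM libraries, at 681 and 1011 CPM in B7hi saline libraries, at 550.3, 731 and 919 CPM in B7low HDM libraries and at 603 and 570.2 CPM in B7low saline libraries. With saline both B7hi values lay above both B7low values, and with HDM the populations overlapped, with B7hi HDM 2 the lowest of the 10 libraries. The log2 fold change of B7hi over B7low was 0.53 ± 0.37 (SE) with saline (95% interval −0.20 to 1.26, edgeR adjusted p = 0.44) and −0.22 ± 0.30 with HDM (−0.81 to 0.38, adjusted p = 0.83). Per kilobase of exon Itgb7 was the highest of the 10 chains in every group, at mean levels of 227 CPM per kb in B7hi HDM, 305 in B7hi saline, 265 in B7low HDM and 212 in B7low saline. B7low cells, sorted as low in the protein, thus carried abundant Itgb7 transcript.

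The αE chain Itgae (chromosome 11, 73090583 to 73147446), which pairs with β7, was at 534, 427 and 278 CPM in B7hi HDM libraries and at 71.8 and 172 CPM in B7hi saline libraries. In B7low cells it was at 9.49, 21.5 and 0 CPM after HDM and at 0 and 10.03 CPM after saline. All 5 B7hi libraries lay above all 5 B7low libraries, and within B7hi the HDM libraries lay above the saline libraries. B7hi over B7low gave a log2 fold change of 5.30 ± 0.98 with HDM (edgeR adjusted p = 0.035), 4.93 ± 0.85 over both challenges (adjusted p = 0.010) and 4.56 ± 1.43 with saline (adjusted p = 0.12). The HDM call was lost, at adjusted p = 0.052 to 0.18, without any of 7 libraries (B7hi saline 1 or 2, B7low saline 1, B7hi HDM 1, 2 or 3, or B7low HDM 1), and the call over both challenges without B7low saline 1 (adjusted p = 0.051). The saline call was gained without B7low HDM 3 (adjusted p = 0.0082). Without both libraries that stood apart, the log2 fold change was 5.26 with HDM (adjusted p = 0.095), 7.81 over both challenges (0.055) and 10.36 with saline (0.24). The B7low saline library that then remained had no Itgae count, so the values with saline and over both challenges depend on the prior count of the fit and set no bound. The call was also lost with limma-voom (0.055 with HDM and 0.10 over both) and, with HDM, without the count filter (0.085).

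Itgae is also a gene of resident T cells and some natural killer cells, so their markers are given beside it. The 9 T cell markers summed to 9.82 to 203 CPM in B7hi and 6.95 to 33.4 CPM in B7low and all 9 had counts in B7hi saline 2 and B7hi HDM 3. In B7hi HDM 1, where Itgae was highest, the T cell markers had 16 counts in all. These fell on 7 of the 9 markers, with none for Cd4 and Cd8b1, and the natural killer cell markers summed to 65.0 CPM there. The 5 natural killer cell markers summed to 58.2 to 379 CPM in B7hi and 6.78 to 36.8 CPM in B7low, mostly from the granzyme gene Gzma in B7hi HDM libraries and B7hi saline 2. Their sum was higher in every B7hi library than in any B7low library, and Klra8 was at 0 throughout. The part of these T cell and natural killer cell transcripts in the Itgae difference was not tested. In such bulk libraries, fewer cells that carry a transcript and less transcript per cell cannot be told apart.

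The α4 chain Itga4 (chromosome 2, 79255426 to 79333123), the partner of both β7 and β1, was at 313, 659.6 and 726 CPM in B7hi HDM libraries and at 944 and 983 CPM in B7hi saline libraries. In B7low cells it was at 107, 127 and 167 CPM after HDM and at 75.2 and 167 CPM after saline. The populations did not overlap under either challenge, and within B7hi the HDM libraries lay below the saline libraries. The log2 fold change of B7hi over B7low was 2.99 ± 0.43 with saline (edgeR adjusted p = 0.00072) and 2.07 ± 0.34 with HDM (adjusted p = 0.0029), and 3.67 and 1.92 without both libraries that stood apart (adjusted p = 0.0017 and 0.0065). T, natural killer and B lymphocytes also carry α4. The sums of the T cell and natural killer cell markers are those given for Itgae, of which the natural killer cell sums, like Itga4, were higher in every B7hi library than in any B7low library. Of the T cell markers 6 were tested and none passed, with a median log2 fold change of 2.80 with saline and 2.70 with HDM. Of the natural killer cell markers 2 were tested and none passed, with a median of 5.32 with saline and 2.30 with HDM. Both were above 0 with saline and 1 with HDM. The 6 B cell markers summed to 5.63 to 68.9 CPM in B7hi and to 19.2 to 595 CPM in B7low. Of the 5 tested, none passed with saline (median 0.51) and 3 were lower in B7hi with HDM (median −4.72), against 2.15% of all tested genes. The part of these lymphocyte transcripts in the Itga4 difference was not tested. Of 4 basophil markers 2 were higher and 2 lower over both challenges, against 5.80% and 6.08% of all tested genes. They summed to 1620 to 2838 CPM in B7hi and 1154 to 1867 CPM in B7low, and their part in the Itga4 difference was not tested.

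The counting step's use of strand is not given, so reads of opposite-strand genes cannot be told apart from those of the chains. Gsg2, the haspin kinase gene within Itgae, was at 0 to 21.5 CPM in B7hi and 0 to 6.50 CPM in B7low, and Cerkl, which overlaps Itga4, at 3.42 to 9.79 CPM in B7hi and 0.632 to 3.34 CPM in B7low. Both were far below the chain they overlap in B7hi, and in B7low this held for Cerkl, while Gsg2 reached into the range of Itgae. Cerkl, like Itga4, was higher in every B7hi library than in any B7low library. The part of opposite-strand reads in the chain differences was not tested.

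The β1 chain Itgb1 (chromosome 8, 128685654 to 128733200), the shared partner of α2, α4, α9 and αv, was at 80.0, 52.8 and 73.3 CPM in B7hi HDM libraries and at 105 and 96.6 CPM in B7hi saline libraries. In B7low cells it was at 245, 154 and 135 CPM after HDM and at 219 and 119 CPM after saline. All B7hi values lay below all B7low values, and the gap was narrow between B7hi saline 1 and B7low saline 2. In log2, B7hi over B7low was −1.34 ± 0.30 with HDM (edgeR adjusted p = 0.022), −1.04 ± 0.23 over both challenges (adjusted p = 0.0075) and −0.74 ± 0.36 with saline (adjusted p = 0.25). Without both libraries that stood apart it was −1.22 with HDM, −1.17 over both challenges and −1.13 with saline. The HDM call was lost without B7hi HDM 2 (adjusted p = 0.089), B7hi HDM 3 (0.069), B7low HDM 1 (0.13) or both libraries that stood apart (0.053), and the call over both challenges without B7low saline 1 (0.056). Endothelial cells are rich in β1. The 6 endothelial markers summed to 337.5, 42.3 and 3.16 CPM in B7low HDM 1, 2 and 3 and to 0 and 18.4 CPM in B7low saline 1 and 2. In B7hi libraries they summed to 5.87 to 10.3 CPM. Their part in the Itgb1 difference was not tested.

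The α9 chain Itga9 (chromosome 9, 118606690 to 118901003) was at 3.75, 5.87 and 2.05 CPM in B7hi HDM libraries and at 6.80 and 6.26 CPM in B7hi saline libraries. In B7low cells it was at 47.4, 28.6 and 18.3 CPM after HDM and at 64.7 and 61.9 CPM after saline. Populations did not overlap, and in each population the HDM libraries lay below the saline libraries. The log2 fold change of B7hi over B7low was −3.26 ± 0.58 with saline (edgeR adjusted p = 0.0026) and −3.10 ± 0.53 with HDM (adjusted p = 0.0032), and −3.30 and −3.37 without both libraries that stood apart (adjusted p = 0.0081 and 0.0080).

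Over all 10 libraries the populations did not overlap for 4 of the 10 chains (Itgae, Itga4, Itgb1 and Itga9), where 9.40% of all tested genes did not overlap. Of these chains 2 were higher in B7hi, against 4.46% of all genes, and 2 were lower, against 4.94%.

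**Figure D2:**
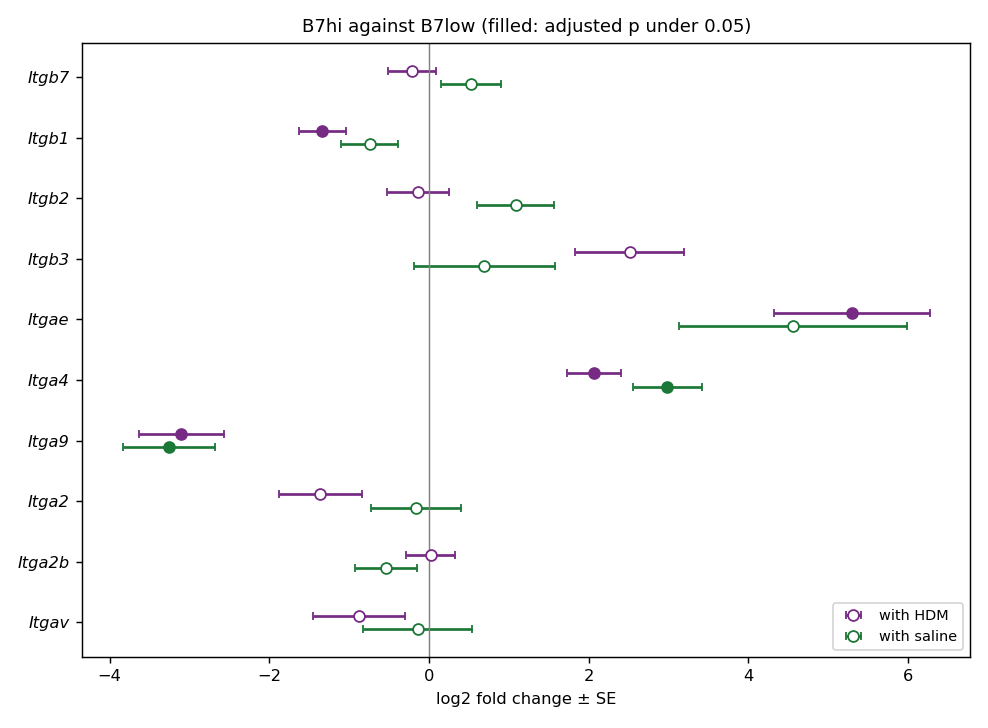
Log2 fold change of B7hi over B7low (horizontal axis, ± SE) for each chain with HDM (purple) and with saline (green), with filled points where the edgeR adjusted p is under 0.05. Itga4 and Itga9 are filled under both challenges, Itgae and Itgb1 with HDM only, and the Itgb7 points are open near 0.

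Besides Itgb7, 5 chains passed in no comparison of the populations in the edgeR fit, though Itgb2 and Itgb3 passed under some other settings. The collagen-binding α2 chain Itga2 was at 3.75, 7.83 and 8.90 CPM in B7hi HDM libraries, at 31.0 and 24.0 CPM in B7hi saline libraries, at 27.1, 12.4 and 13.9 CPM in B7low HDM libraries and at 26.2 and 35.1 CPM in B7low saline libraries. B7hi HDM was the low group, below each of the other 3 without overlap. The αv chain Itgav, a partner of β1 and β3, was at 5.87 to 33.9 CPM in B7hi libraries and 15.05 to 35.0 CPM in B7low libraries, with overlap in each comparison. The leukocyte β2 chain Itgb2, the partner of αL and αM, was at 58.8 to 190.0 CPM in B7hi libraries and 65.2 to 155 CPM in B7low libraries, with the 2 B7hi saline libraries above both B7low saline libraries (log2 fold change 1.09 ± 0.49, edgeR adjusted p = 0.21). Without the count filter Itgb2 passed with saline (1.18, adjusted p = 0.026).

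The αIIb chain Itga2b was at 713, 299 and 272 CPM in B7hi HDM libraries, at 265 and 241 CPM in B7hi saline libraries, at 432, 395 and 446 CPM in B7low HDM libraries and at 304 and 429.8 CPM in B7low saline libraries. Every library thus carried it at 241 CPM or more, and B7hi HDM 1 stood above the rest. Its β3 partner Itgb3 was at 233, 127 and 56.8 CPM in B7hi HDM libraries, at 21.2 and 65.3 CPM in B7hi saline libraries, at 13.6, 29.3 and 27.8 CPM in B7low HDM libraries and at 6.99 and 46.8 CPM in B7low saline libraries. After HDM the 3 B7hi values lay above the 3 B7low values. The log2 fold change with HDM was 2.52 ± 0.68 (edgeR adjusted p = 0.096), and it passed with DESeq2 (adjusted p = 0.0016), without the count filter (8.2e-07) and without B7hi HDM 3 (0.037). Of the platelet and megakaryocyte markers, Treml1 was at 0 in all libraries and Pf4, Ppbp, Gp9, Gp6 and Gp1bb were at 0 to 3.91 CPM. The sum of the whole list, 4.53 to 66.3 CPM in B7hi and 43.4 to 82.2 CPM in B7low, was nearly all Gp1ba. Gp1ba, the only marker tested, was lower in B7hi with saline and over both challenges.

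HDM against saline was tested within each population. In B7hi cells 0 of the 10 chains passed, with edgeR, DESeq2 and limma-voom alike, and 1 of all tested genes passed (0.00949%), while 4 chains and 435 genes had an unadjusted p under 0.05. HDM and saline libraries of B7hi did not overlap for 6 of the 10 chains, against 20.6% of all genes. Itgae and Itga2b were above the saline values after HDM (10.2% of all genes), and Itga4, Itgb1, Itga9 and Itga2 were below them (10.4%). The log2 fold changes of HDM over saline were −2.03 ± 0.54 for Itga2 (edgeR adjusted p = 0.36), 1.75 ± 0.90 for Itgae (1.0) and −0.77 ± 0.35 for Itga4 (1.0). Itgb3, at 1.67 ± 0.74 (adjusted p = 1.0), passed only when no count filter was used.

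In B7low cells 0 of the 10 chains passed with edgeR, DESeq2 or limma-voom, and 1 of all genes passed (0.00949%). Itga9 had an unadjusted p under 0.05 (log2 fold change −1.04 ± 0.47, edgeR adjusted p = 0.54), as had 956 genes in all. It was also the 1 chain of 10 without overlap, against 23.9% of all genes. The difference between the HDM effects of the populations passed for 0 chains and 0 genes with edgeR, 44 genes passed with DESeq2 and 0 with limma-voom, and 901 genes but no chain had an unadjusted p under 0.05. For Itga4 this difference was −0.92 ± 0.52 (95% interval −1.94 to 0.11, adjusted p = 0.68) and for Itgae 0.74 ± 2.05 (−3.28 to 4.77, adjusted p = 0.96), intervals that leave room for large differences.

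**Figure D3:**
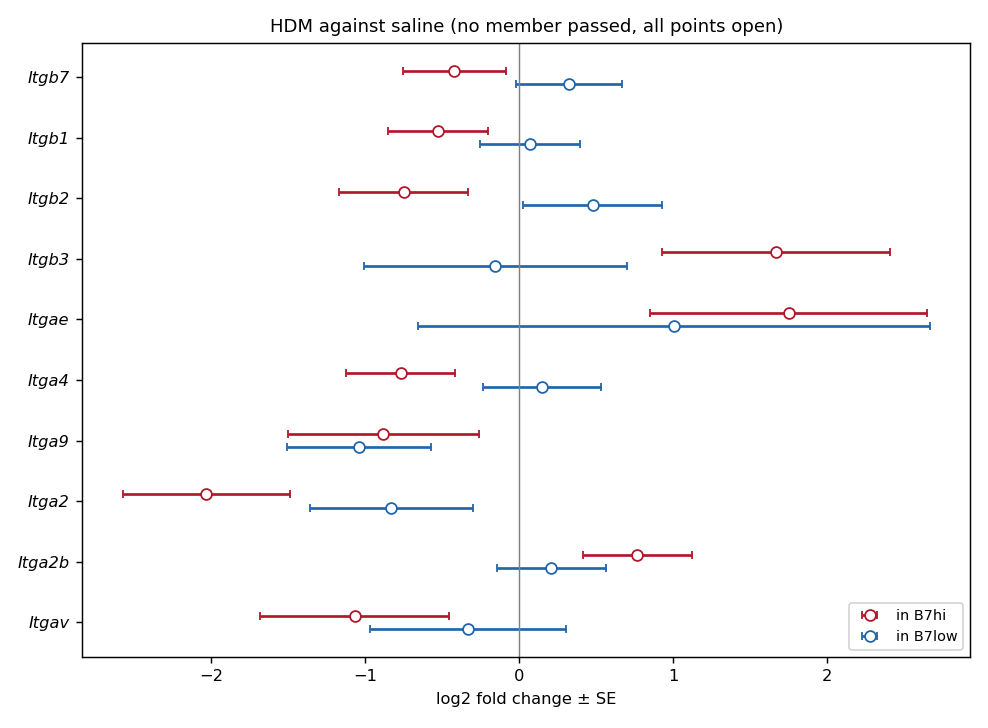
Log2 fold change of HDM over saline (horizontal axis, ± SE) for each chain in B7hi (red) and in B7low (blue). No chain passed an edgeR adjusted p of 0.05, and Itga2 in B7hi, at −2.03, lies farthest from 0.

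Only transcripts were measured, not chains paired on the surface, so the pairs were compared by levels per kilobase of exon, within each library and with no test. Of the 6 α chains summed per kb, Itgae made up 11.4% to 47.1% in B7hi libraries and 0% to 5.03% in B7low libraries, and Itga4 8.25% to 49.0% in B7hi and 7.03% to 12.03% in B7low. Itga2b took 27.7% to 48.2% in B7hi and 72.9% to 82.1% in B7low. Itga9 took 0.161% to 0.641% in B7hi and 2.39% to 11.0% in B7low. Among the 4 β chains Itgb7 held 66.9% to 79.9% in B7hi and 65.5% to 84.4% in B7low, and Itgb1 held 5.04% to 7.77% in B7hi and 8.39% to 19.8% in B7low. The shares of Itgae, Itga2b and Itga9 did not overlap between the populations, and those of Itga4 and Itgb7 did. A share depends on the other chains in the sum, and the Itga2b level itself overlapped, at 44.2 to 130.8 CPM per kb in B7hi and 55.8 to 81.8 CPM per kb in B7low.

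**Figure D4:**
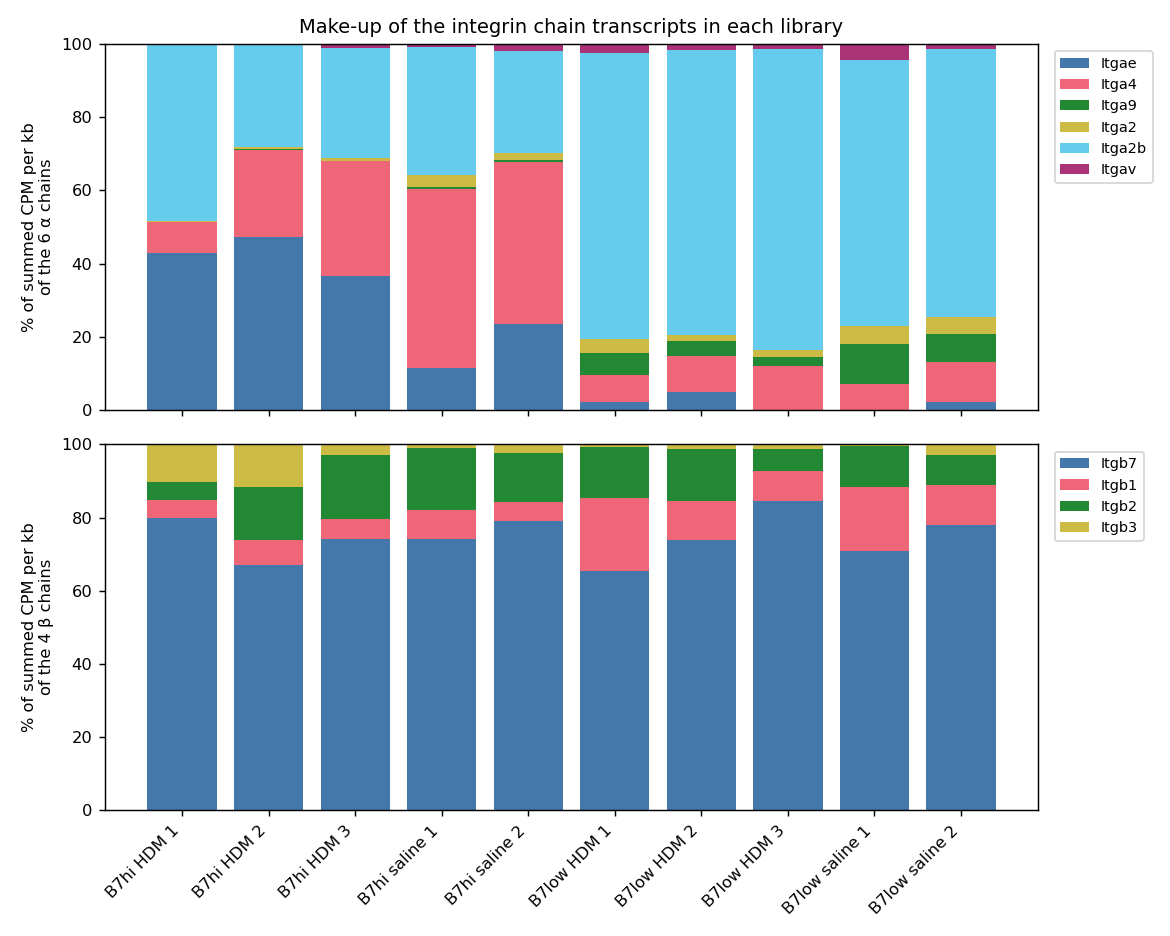
Share (vertical axis, % of summed CPM per kb) of each α chain (upper panel) and each β chain (lower panel) in each library. Itgae reaches 11.4% to 47.1% in B7hi and at most 5.03% in B7low, Itga2b fills 72.9% or more of the α bars in B7low, and Itgb7 fills 65.5% or more of each β bar.

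In the β7 pairs, the α chain was the lower chain in all 10 libraries. For α4β7 the Itga4 level was 40.5 ± 15.9 CPM per kb in B7hi HDM, 68.9 ± 1.98 in B7hi saline, 9.57 ± 2.202 in B7low HDM and 8.67 ± 4.66 in B7low saline (SD, n = 3, 2, 3 and 2). For αEβ7 the Itgae level was 90.2 ± 28.1 CPM per kb in B7hi HDM, 26.6 ± 15.5 in B7hi saline, 2.25 ± 2.35 in B7low HDM and 1.10 ± 1.55 in B7low saline (SD, same n). In B7hi the αE chain was thus above α4 after HDM on the group means and below it after saline.

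In α4β1 the order of the chains turned between the populations. Itga4 was above Itgb1 per kb in all 5 B7hi libraries and below it in all 5 B7low libraries, so that the lower chain was Itgb1 at 16.8 ± 3.47 CPM per kb in B7hi HDM and 24.7 ± 1.47 in B7hi saline, and Itga4 in both B7low groups. For α9β1 the lower chain was Itga9 in every library, at 0.506 ± 0.249 CPM per kb in B7hi HDM, 0.849 ± 0.0494 in B7hi saline, 4.09 ± 1.92 in B7low HDM and 8.23 ± 0.260 in B7low saline (SD, n = 3, 2, 3 and 2). The α9β1 level was thus lower in B7hi, opposite to the α4β7 level.

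Set against each other, the α4 level was 45.9 to 194 times the α9 level in B7hi libraries and 0.639 to 5.03 times in B7low libraries, without overlap. The β7 level was 9.49 to 15.8 times the β1 level in B7hi and 3.30 to 10.1 times in B7low, where B7low HDM 3 overlapped the B7hi libraries. β7 was thus the higher β chain in each of the 10 libraries.

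**Figure D5:**
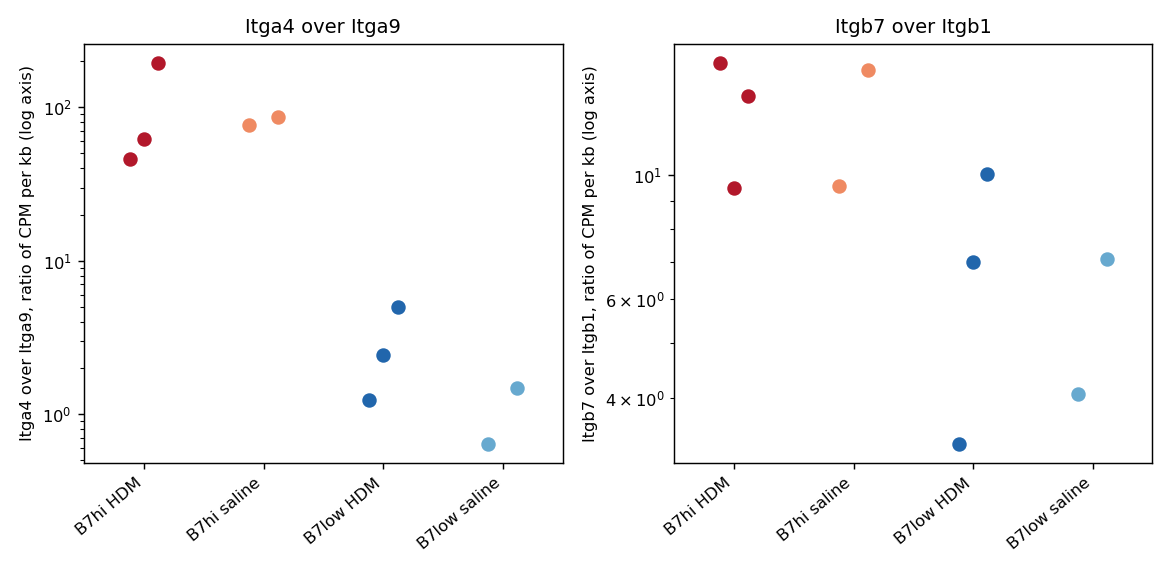
Ratio of Itga4 to Itga9 (left) and of Itgb7 to Itgb1 (right) in CPM per kb, on log axes, with a point for each library of the 4 groups. The α ratio is 45.9 or more in B7hi and 5.03 or less in B7low, and the β ratios of the populations meet near 10.1.

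In αIIbβ3 the β3 chain was the lower in all libraries, at 23.6 ± 15.04 CPM per kb in B7hi HDM, 7.32 ± 5.28 in B7hi saline, 3.99 ± 1.47 in B7low HDM and 4.56 ± 4.77 in B7low saline (SD, n = 3, 2, 3 and 2). For α2β1 the lower chain was Itga2, at 0.957 ± 0.381, 3.86 ± 0.691, 2.49 ± 1.14 and 4.30 ± 0.881 CPM per kb in the same order of groups. In αvβ1 the lower chain was Itgav in every library, at mean levels between 0.948 CPM per kb in B7hi HDM and 2.33 in B7low saline. For αvβ3 it was Itgav in all 5 B7hi libraries, and in 2 of 3 B7low HDM and 1 of 2 B7low saline libraries. These pairs with α2 and αv were thus among the lowest in level, and their spread within groups was wide.

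Of 16 other integrin chains 9 passed the count filter (Itga1, Itga5, Itga6, Itga7, Itgal, Itgam, Itgax, Itgb4 and Itgb6). Itgal, the αL chain that pairs with β2 and binds ICAM-1, was higher in B7hi with saline (log2 fold change 2.42 ± 0.59, edgeR adjusted p = 0.020) and over both challenges (1.36 ± 0.35, adjusted p = 0.019). It was at 47.0 to 60.3 CPM in the 3 B7hi HDM libraries, at 56.7 and 62.6 CPM in B7hi saline libraries, at 52.9, 32.5 and 45.5 CPM in B7low HDM libraries and at 1.75 and 20.1 CPM in B7low saline libraries. With saline it no longer passed without B7hi saline 1 (adjusted p = 0.068), B7hi saline 2 (0.086) or B7low saline 1 (0.084), nor with limma-voom (0.084), and the call over both challenges without B7hi saline 2 (0.060) or B7low saline 1 (0.053). None of the other 8 passed in any comparison. Thus 1 of these 9 chains passed with saline, where 6.54% of all tested genes did, and 1 over both challenges, near the 11.9% of all tested genes. The 7 chains that did not pass the filter (Itga3, Itga8, Itga10, Itga11, Itgad, Itgb5 and Itgb8) were at 0 to 6.99 CPM in each library.

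The proteins that switch integrins on and tie them to actin were followed as a list of 34 genes, of which 28 were tested. With saline 3 were higher and 1 lower in B7hi, with HDM 1 was higher, and over both challenges 4 were higher and 3 lower. Of all tested genes 6.54% passed with saline, 2.84% with HDM and 11.9% over both challenges, so that with HDM the share of the list was near that of all genes. The median log2 fold change of the list was 0.17 with saline and −0.06 with HDM. The tetraspanins Cd9 and Cd81, membrane partners of integrins, went opposite ways. Cd9 was at 209, 199.6 and 196 CPM in B7hi HDM libraries, at 468 and 246 CPM in B7hi saline libraries, at 182, 80.7 and 161 CPM in B7low HDM libraries and at 17.5 and 31.8 CPM in B7low saline libraries (log2 fold change with saline 3.84 ± 0.46, edgeR adjusted p = 0.00012, and with HDM 0.53 ± 0.31, adjusted p = 0.51). Cd81 was at 272 to 633 CPM in B7hi and at 731 to 1411 CPM in B7low (with saline −1.99 ± 0.34, adjusted p = 0.0018, and with HDM −0.94 ± 0.27, adjusted p = 0.074). Neither overlapped between the populations.

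Parvg, γ-parvin of the kinase complex that links integrins to actin, was 1.81 ± 0.33 higher in log2 in B7hi with saline (edgeR adjusted p = 0.0035), and its partner Ilk, integrin-linked kinase, 1.30 ± 0.28 (0.0098). With HDM these were 0.15 ± 0.25 for Parvg (adjusted p = 0.86) and −0.16 ± 0.22 for Ilk (0.83). The saline call of Ilk was lost without B7hi saline 1 or B7low saline 2, at log2 fold changes of 1.14 and 1.12. Over both challenges Ilk was also called higher. That call was lost without B7hi HDM 2 or 3 or any B7low HDM library (edgeR adjusted p up to 0.10). It was lost too without B7hi saline 1, B7hi saline 2 or B7low saline 2, at log2 fold changes of 0.48, 0.65 and 0.48. The saline calls of Parvg, Cd9 and Cd81 were kept in all 10 fits that left out a library. Rassf5, which carries the RAP1 signal to integrins, was higher with HDM (1.11 ± 0.28, adjusted p = 0.041) and over both challenges (1.09 ± 0.22, adjusted p = 0.0042), and its HDM call was lost without B7hi saline 1 or any of the 6 HDM libraries (adjusted p up to 0.22). Over both challenges vinculin (Vcl) was lower (−1.03 ± 0.31, adjusted p = 0.045), a call lost without either B7hi saline library, any B7hi HDM library, B7low saline 1 or B7low HDM 1 (adjusted p up to 0.18). The adaptor Bcar1 had 1 count in B7hi and 36 in B7low, 48.8-fold lower in B7hi (exact 95% counting interval 8.21 to 1979), and its call over both challenges was lost without B7hi saline 2 (adjusted p = 0.056). Talin (Tln1, 440.4 to 777 CPM in B7hi and 614 to 727 CPM in B7low), Cd47 and kindlin-3 (Fermt3), needed for integrin activation in blood cells, passed in no comparison.

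Of 15 genes that hold integrins back or compete with talin 13 were tested, and 0 passed with HDM. With saline and over both challenges the genes higher in B7hi included the filamin gene Flna (2.05 ± 0.49 with saline, edgeR adjusted p = 0.024). In each of these comparisons 3 genes were lower, against 3.64% of all tested genes with saline and 6.08% over both challenges. These 3 were Rap1gap2, which turns RAP1 off (−1.35 ± 0.35, adjusted p = 0.028), and the tensins Tns1 (−1.70 ± 0.45, 0.036) and Tns3 (−1.60 ± 0.44, 0.040). The saline calls of these 4 named genes were lost without B7hi saline 1, B7hi saline 2 or B7low saline 1, and without B7low saline 2 for Rap1gap2 and Tns1. Adjusted p then reached 0.12 for Flna, 0.27 for Rap1gap2, 0.22 for Tns1 and 0.37 for Tns3. Over both challenges Rap1gap2 was kept in all 10 such fits, Flna was lost without B7hi saline 1 or B7low saline 1 (adjusted p up to 0.059), and Tns1 without any of the 4 saline libraries (up to 0.10). Tns3 was lost there without B7hi saline 1 or 2, B7low saline 1, B7hi HDM 2 or 3, or B7low HDM 1 or 2 (up to 0.23). Without both libraries that stood apart, the saline calls of Parvg, Ilk, Rap1gap2 and Tns1, the HDM call of Rassf5 and the calls of Ilk, Vcl and Tns1 over both challenges were lost as well. The median log2 fold change of the list was −0.17 with saline and −0.28 with HDM.

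Of 25 integrin ligands 10 were tested, and 1 was higher with saline and 2 over both challenges, against 2.91% and 5.80% of all tested genes. Cdh1, E-cadherin, the ligand of αEβ7, was at 67.5, 114 and 127 CPM in B7hi HDM libraries, at 177 and 124 CPM in B7hi saline libraries, at 84.0, 45.5 and 61.9 CPM in B7low HDM libraries and at 10.5 and 18.4 CPM in B7low saline libraries. The log2 fold change was 3.36 ± 0.47 with saline (edgeR adjusted p = 0.00042) and 2.03 ± 0.28 over both challenges (adjusted p = 0.00015). With HDM the populations overlapped, and it was 0.69 ± 0.32 (adjusted p = 0.34). The 7 epithelial markers summed to 6.25 to 17.6 CPM in B7hi and 0 to 68.9 CPM in B7low. With saline their sum was 11.3 and 12.5 CPM in B7hi libraries and 0 and 8.36 CPM in B7low libraries. Of the 2 epithelial markers tested, only the keratin Krt18 had a log2 fold change above 0 with saline, and neither passed. Krt18 was at 10.6 and 9.40 CPM in B7hi saline libraries and at 0 in both B7low saline libraries (edgeR adjusted p = 0.081). The part of epithelial transcripts in the Cdh1 difference was not tested. Adam8 was higher over both challenges (1.66 ± 0.52, adjusted p = 0.048), a call lost on leaving out any library other than B7low saline 2 (adjusted p up to 0.17).

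The genes most like 4 of the chains in log2 CPM over the 10 libraries were taken from 6069 candidates with a mean of at least 20 CPM. Itgae was most like Naca, Rpl23, Rps12 and Rpl35a (Pearson r = 0.98 each), genes of the ribosome and its nascent chain complex, and Rpl23 was at 608 to 887 CPM in B7hi and 297 to 493 CPM in B7low. Itga4 was most like Hn1 (0.98), Cpne2 (0.97), Actr3 (0.96) and Muc13 (0.96). Itga9 was most like Agap1 (0.99), Crispld2 (0.98), Ercc6l2 (0.98) and Fam49a (0.98), of which Crispld2 was at 0 to 3.02 CPM in B7hi and 15.2 to 90.9 CPM in B7low. Itgb7 was most like Tspyl3 (0.93), Snx19 (0.91), Scp2 (0.91) and Desi1 (0.89). These points share their libraries and depth, and the likeness of Itgae, Itga4 and Itga9 to other genes includes the difference between the populations.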

How the data were processed

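The deposited table holds counts, whole numbers per gene symbol, with 1 column for each of the 10 libraries. Per the labels' protocols, sorted cells were lysed directly, poly(A)+ mRNA was copied, amplified and cut by a transposase (SmartSeq2), and sequenced as paired reads of 25 nt without molecular identifiers, so limits and intervals from counts cover counting error only. TopHat2 2.0.10, Cufflinks 2.2.1, DESeq2 and mm10 are named in the submitters' processing notes, with no role for each. How reads were counted, and whether strand was used, is not given in the sources used here.

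Genes were filtered with filterByExpr over the 4 groups, normalized by TMM, and tested with edgeR 4.0.16 under R 4.3.3 (quasi-likelihood, robust, 1 mean per group, all 10 libraries together, two-sided, no replicate block). The 6 contrasts were B7hi against B7low with saline, with HDM and over both challenges, HDM against saline in each population, and the difference of those HDM effects. P-values were adjusted after Benjamini-Hochberg across 10533 genes, with a threshold of 0.05. The SE was derived from the F statistic and the log2 fold change. CPM use TMM-scaled library sizes, and levels per kb use the union of exons in GENCODE M21 on GRCm38 (mm10), with 1-based coordinates. Total counts per library ran from 525983 to 1725818, and low genes are the least precise.

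Named are all 10 members, every other tested integrin chain, up to 6 called and up to 4 high-level genes of each further list, and the 4 genes most like each of Itgb7, Itgae, Itga4 and Itga9 (Pearson, log2 CPM with a prior count of 2, predicted gene models left out). Of the high-level genes some are given by count only, and certain members of the lists are left out of the text. Members and lists were chosen with earlier results of these data known. The fit was tested on simulated data. Alternatives were DESeq2 size factors, library size alone, DESeq2 1.42.0, limma-voom (limma 3.58.1), no count filter, 5 CPM in 2 libraries, each library left out, both libraries that stood apart left out, a replicate block, and the longest transcript as gene length.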

Additional observations from a re-analysis of the deposited data

How the results depend on the processing

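The calls of Itga4 and Itga9 between B7hi and B7low kept direction and side of the threshold under all 18 alternatives run, at adjusted p of at most 0.037 with HDM and 0.040 with saline. No called result changed sign. With HDM, 2 chains were left past the threshold without both libraries that stood apart. Leaving out each library in turn gave 2 to 3 chains with saline, 2 to 4 with HDM and 2 to 5 over both challenges. Without the count filter 1 chain, Itgb3, passed for HDM against saline in B7hi. Counts over all genes moved more. For B7hi against B7low they were 1078 with saline without the count filter, and with HDM 507 with DESeq2 and 548 without the filter. For HDM against saline in B7hi, 55 genes passed with DESeq2, 11 with limma-voom, 89 without the filter, 6 with the replicate block and 5 without both libraries. In B7low, 0 passed with DESeq2 size factors, limma-voom or without both libraries, 4 with library size alone, 19 with DESeq2, 112 without the filter, 3 with the 5 CPM filter and 2 with the replicate block. For the difference of HDM effects, 2 passed with library size alone, 44 with DESeq2, 143 without the filter, 3 with the 5 CPM filter and 1 without both libraries. Leaving out each library gave 226 to 685 genes with saline, 137 to 368 with HDM, 659 to 1163 over both challenges, 0 to 11 for HDM in B7hi, 0 to 13 in B7low and 0 to 3 for the difference. The cause of these changes was not tested. Leave-one-library fits aside, the share of calls that were higher in B7hi ran from 28.0% with limma-voom to 67.9% with library size alone with saline (44.4% with TMM), from 14.0% without both libraries to 36.7% with limma-voom with HDM (24.4%), and from 39.7% with limma-voom to 61.4% with library size alone over both challenges (48.8%). Library size alone shifted the median of all genes by 0.27 with saline and 0.12 over both challenges on the log2 scale.

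Deviations of same-numbered libraries from their group means correlated at −0.11 to 0.04 between the populations. With groups of 2 or 3 libraries such a check cannot exclude pairing, which the labels do not state. The main fit took no pairs, and a replicate block was run as an alternative. The replicate block gave 636 genes with saline, 313 with HDM and 1148 over both challenges. The same chains passed, and Itgb3 in addition with HDM (adjusted p = 0.020) and over both challenges (0.023). With the longest transcript as gene length, the α4 to α9 ratio was 60.0 to 254 in B7hi and 0.835 to 6.57 in B7low. Chains at a few CPM, such as Itga9 in B7hi, rest on few counts.

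Of 1565 log2 fold changes recomputed, 43 changed sign, over 18 results that passed neither as reported nor with the other sign. For B7hi against B7low with saline, leaving out each library gave −0.36 to 2.65 for Itgb3 (0.69 as reported), −1.24 to 0.62 for Itgav (−0.14) and −0.33 to 0.083 for Itga2 (−0.16). Library size alone gave 0.15 for Itgav and 0.096 for Itga2, and leaving out both libraries 0.055 for Itga2. With HDM the leave-one-out range was −0.50 to 0.044 for Itgb7 (−0.22), −0.57 to 0.27 for Itga2b (0.020) and −0.77 to 0.17 for Itgb2 (−0.14). Itgb7 was at 0.055 without both libraries, and Itga2b at −0.024 with library size alone, −0.16 with limma-voom and −0.13 with the replicate block. Over both challenges Itgb7 ranged from −0.0031 to 0.29 (0.16). For HDM against saline, Itgav in B7hi ranged from −1.75 to 0.010 (−1.07). In B7low the ranges were −0.89 to 1.80 for Itgb3 (−0.15), −0.27 to 0.85 for Itga4 (0.15), −0.63 to 6.71 for Itgae (1.006), −0.81 to 0.43 for Itgav (−0.33) and −0.30 to 0.61 for Itgb1 (0.069). There Itgb3 was at 0.25 with limma-voom, 0.24 with the replicate block and 1.79 without both libraries, Itga4 at −0.0082 with the block and Itgb1 at −0.31 without both. For the difference of HDM effects the ranges were −4.96 to 2.41 for Itgae (0.74), −0.14 to 2.89 for Itgb3 (1.82), −0.085 to 0.55 for Itga9 (0.16), −0.012 to 0.86 for Itga2b (0.56) and −1.51 to 0.36 for Itgav (−0.74). Without both libraries it was −5.10 for Itgae, −0.064 for Itgb3 and −0.062 for Itga9, and −0.13 for Itga9 with library size alone.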
